A study of Mus musculus with 8 samples.

Results

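The 8 genes described here are Ugt8a, Fa2h, Gal3st1, Cers2, Elovl1, Elovl7, Aspa and Enpp2, which make or supply the lipids of myelin or, for Enpp2, act on lysophospholipids. They were taken by gene symbol from the deposited expression table. Each symbol matched 1 of the 55401 genes listed, and all 8 passed the filter on low values that left 16894 genes for testing (mean of at least 0.5 FPKM, fragments scaled to transcript length and library size). The libraries came from mouse hypothalami on postnatal day 19, 4 from pups gavaged with vehicle and 4 from pups gavaged with PLX3397 on postnatal days 9 to 15, with 2 females and 2 males in each group. PLX3397 is an inhibitor of CSF1R, the receptor on which microglia depend, and the series asks what microglia contribute to hypothalamic development after birth. Whether a difference arose through microglia or through another action of the compound was not tested. The labels give no strain, genotype or litter, and the source field names only brain. All 9 genes of the hypothalamic neuropeptide and transcription factor list passed the filter, among them Pmch at 276 ± 12.7 FPKM in vehicle (SD, n = 4). Libraries were treated as separate animals because the design text counts 8 hypothalami, and p-values measure the spread between them.

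Myelin is a stack of oligodendrocyte membrane that is unusually rich in galactosylceramide and its sulfated form, sulfatide. Their ceramide backbones carry very long acyl chains, many of them 2-hydroxylated, so that elongases, a ceramide synthase, a fatty acid hydroxylase, a galactosyltransferase and a sulfotransferase act in sequence. Part of the acetate for these chains is released in oligodendrocytes from N-acetylaspartate, which neurons make. Autotaxin, the Enpp2 product, is secreted, is made by oligodendrocytes and by choroid plexus, and produces lysophosphatidic acid.

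The start regions of the genes differ in base composition, and 4 are shown because they span that range and hold the motif matches found. RefSeq promoter windows (GRCm38.p6, 250 bases before to 50 after an annotated start) were held for 6 of the 8 genes, 10 windows in all. Fa2h and Enpp2 had no entry. The windows are written 5′ to 3′ on the gene's strand in lower case, and capitals mark CAGCTG, an E-box sequence. They lie at chr3:125938603-125938902 on the minus strand for Ugt8a and chr11:3983386-3983685 on the plus strand for Gal3st1. Internal starts are shown for Cers2 (chr3:95318580-95318879, plus strand) and Aspa (chr11:73324588-73324887, minus strand). The Aspa start, at 73324637, lies inside the deposited span, which begins at 73329596 on that strand.
Ugt8a: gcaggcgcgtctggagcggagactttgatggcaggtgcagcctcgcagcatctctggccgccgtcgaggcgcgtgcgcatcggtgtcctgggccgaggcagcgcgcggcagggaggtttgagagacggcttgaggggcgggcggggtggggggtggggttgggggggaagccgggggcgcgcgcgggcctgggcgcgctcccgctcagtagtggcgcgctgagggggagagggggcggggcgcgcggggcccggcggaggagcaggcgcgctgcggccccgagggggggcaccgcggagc
Gal3st1: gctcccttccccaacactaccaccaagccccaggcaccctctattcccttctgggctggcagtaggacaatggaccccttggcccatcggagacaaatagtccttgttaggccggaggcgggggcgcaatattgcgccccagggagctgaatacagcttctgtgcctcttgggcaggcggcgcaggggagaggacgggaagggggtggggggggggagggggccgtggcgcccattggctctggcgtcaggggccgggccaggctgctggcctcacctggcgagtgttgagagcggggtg
Cers2: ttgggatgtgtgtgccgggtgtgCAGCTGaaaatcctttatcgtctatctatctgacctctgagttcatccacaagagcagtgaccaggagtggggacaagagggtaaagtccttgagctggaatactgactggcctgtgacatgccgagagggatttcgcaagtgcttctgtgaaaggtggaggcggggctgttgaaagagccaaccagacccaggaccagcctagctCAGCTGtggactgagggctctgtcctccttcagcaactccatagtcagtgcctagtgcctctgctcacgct
Aspa: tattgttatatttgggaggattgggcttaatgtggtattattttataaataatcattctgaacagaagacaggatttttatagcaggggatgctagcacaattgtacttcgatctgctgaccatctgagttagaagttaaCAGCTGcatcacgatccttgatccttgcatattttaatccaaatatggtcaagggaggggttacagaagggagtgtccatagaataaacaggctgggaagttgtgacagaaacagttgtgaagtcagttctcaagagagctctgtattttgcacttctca
The Ugt8a window was 78.3% G or C with 40 CG dinucleotides and the Gal3st1 window held 14. The Aspa window was 39.0% with 2, below the median of 52.7% and 7 over all 32851 windows. CAGCTG, which reads the same on both strands, stood in 2 of the 10 windows, against 16.3% of all windows. The internal Cers2 start held 2 matches and the internal Aspa start 1. ACAAAG (the SOX core), CTGGNAC (MYRF) and TCACNCCAC (sterol response element), searched on both strands, stood in 0 of the 10, against 18.7%, 19.3% and 1.24% of all windows. A match is only a match of letters, and its absence covers only these windows.

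All 8 genes had lower estimates in PLX3397 hypothalami, as had 50.6% of all tested genes, and for 7 of the 8 every PLX3397 library lay below every vehicle library. Such a separation downward was found for 6.89% of all tested genes. Gal3st1, Enpp2 and Cers2 passed the test, which is edgeR's quasi-likelihood test with Benjamini-Hochberg adjustment over all tested genes and a threshold of 0.05, so that 3 of 8 fell and 0 rose. By the same rule 1.83% of all tested genes fell and 0.308% rose. An unadjusted p under 0.05 was found for 7 of the 8, and for 16.2% of all tested genes. The median log2 fold change of the 8 genes was -1.05, against -0.00 over all tested genes. The members were named with earlier results of these data known. In a whole tissue, fewer oligodendrocytes and less RNA per oligodendrocyte cannot be told apart. The part of other cell types in these values, microglia among them, was not tested.

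**Figure D1:**
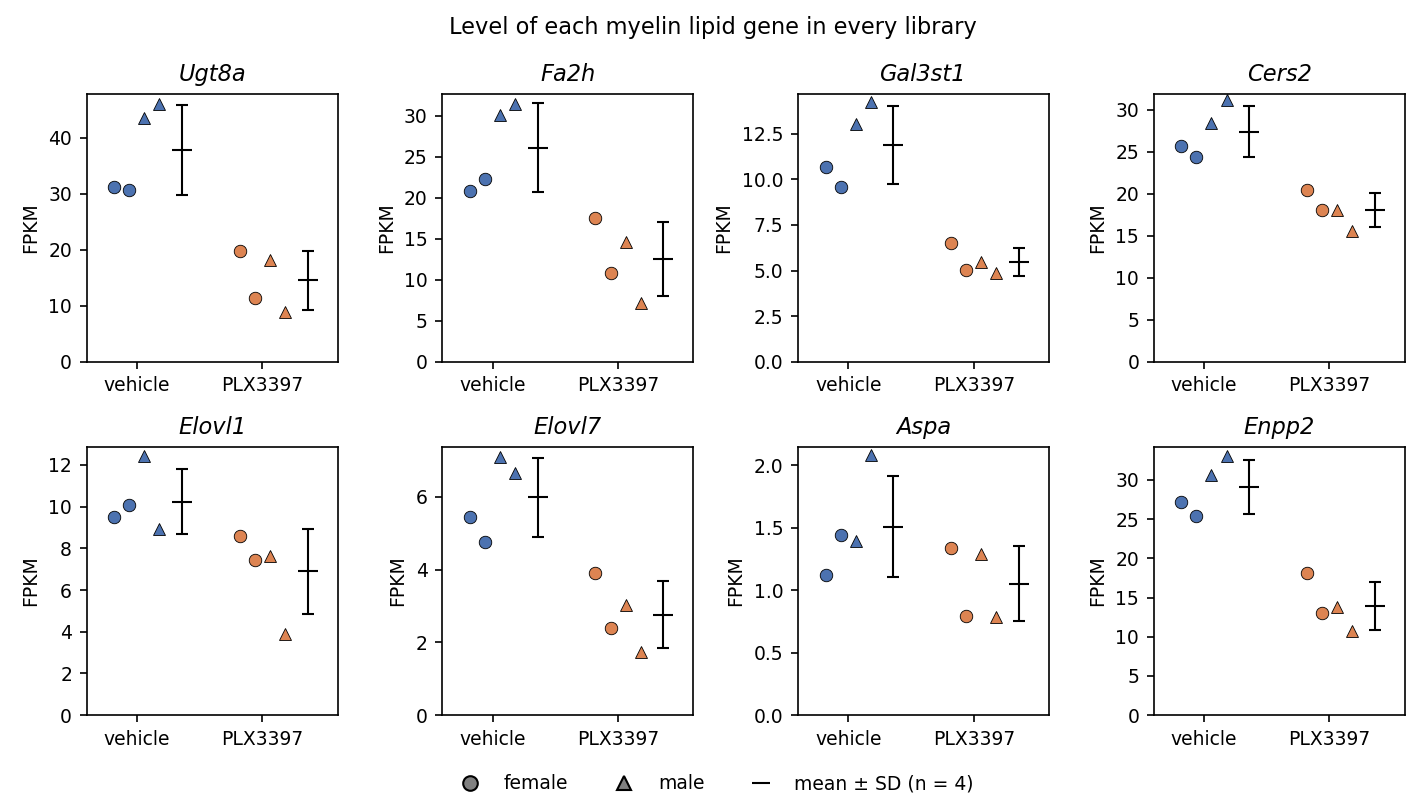
Deposited FPKM of each gene (vertical axis, starting at 0, with its own scale for each gene) in the 4 vehicle and 4 PLX3397 libraries; circles are females, triangles males, and the bar beside each group is the mean ± SD. The groups overlap for Aspa and lie apart for the other 7 genes, by 0.312 FPKM for Elovl1 and by 10.8 FPKM for Ugt8a.

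Ugt8a encodes the galactosyltransferase that makes galactosylceramide from ceramide (chr3, 125865271 to 125938619, minus strand, mm10). Its level was 31.3, 30.6, 43.5 and 46.1 FPKM in vehicle F1, F2, M1 and M2, and 19.8, 11.4, 18.2 and 8.88 FPKM in PLX3397 F1, F2, M1 and M2. Groups did not overlap, and the males were the highest of the vehicle libraries. The mean went from 37.9 ± 8.05 to 14.6 ± 5.26 FPKM (SD, n = 4 each), the largest proportional difference among the 8 genes, at 38.5% of the vehicle mean. The log2 fold change was -1.35 ± 0.28 (SE), and the gene missed the threshold with edgeR's quasi-likelihood test (adjusted p = 0.0642). It passed without PLX3397 F1 (adjusted p = 0.0259), with no term for sex (0.0369) and with DESeq2 (0.00165).

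Fa2h encodes the fatty acid 2-hydroxylase that gives galactolipids their hydroxylated chains (chr8, 111345135 to 111393824, minus strand). Vehicle F1, F2, M1 and M2 held 20.8, 22.3, 30.1 and 31.4 FPKM, and PLX3397 F1, F2, M1 and M2 held 17.6, 10.8, 14.6 and 7.23 FPKM. The groups lay apart, with PLX3397 F1 close to the lowest vehicle library. The spread within PLX3397 was wide (12.5 ± 4.49 FPKM, against 26.1 ± 5.37 in vehicle), and the log2 fold change of -1.04 ± 0.29 missed the threshold with edgeR (adjusted p = 0.134). DESeq2 gave an adjusted p of 0.0344.

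Gal3st1 encodes the sulfotransferase that turns galactosylceramide into sulfatide (chr11, 3983636 to 3999326, plus strand). The vehicle libraries F1, F2, M1 and M2 had 10.7, 9.58, 13.0 and 14.2 FPKM, and the PLX3397 libraries 6.52, 5.05, 5.46 and 4.84 FPKM. The PLX3397 values kept within a narrow range well under the lowest vehicle value. Gal3st1 fell from 11.9 ± 2.12 to 5.47 ± 0.749 FPKM (log2 fold change -1.10 ± 0.15, edgeR adjusted p = 0.0146), the smallest adjusted p of the 8. It lost the call without PLX3397 F2 (adjusted p = 0.061), PLX3397 M1 (0.0652) or vehicle M1 (0.054). With both vehicle F1 and PLX3397 M2 left out, adjusted p was 0.118.

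Cers2 encodes the ceramide synthase that joins very long acyl chains to the sphingoid base, and many cell types besides oligodendrocytes express it (chr3, 95314791 to 95323599, plus strand). Its level was 25.6, 24.3, 28.4 and 31.1 FPKM in vehicle F1, F2, M1 and M2, and 20.4, 18.1, 18.1 and 15.6 FPKM in PLX3397 F1, F2, M1 and M2. Both groups were tight and did not overlap. Cers2 fell from 27.4 ± 3.03 to 18.1 ± 1.98 FPKM (log2 fold change -0.59 ± 0.11, edgeR adjusted p = 0.0421). When libraries were dropped singly, the call held only when PLX3397 F1 was dropped (adjusted p = 0.0241). Dropping PLX3397 F2, M1 or M2, or any of the 4 vehicle libraries, gave adjusted p from 0.0712 to 0.135. The span overlaps Setdb1 and 6330562C20Rik on the other strand, which share 75 and 144 exonic bases with it, 2.04% and 3.92% of its 3676, so a few reads may not be assigned with certainty.

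Elovl1 encodes the elongase that extends saturated chains to very long lengths (chr4, 118428093 to 118432953, plus strand). It was at 9.52, 10.1, 12.4 and 8.92 FPKM in vehicle F1, F2, M1 and M2, and at 8.61, 7.42, 7.64 and 3.92 FPKM in the PLX3397 libraries. The highest PLX3397 value came within 0.312 FPKM of the lowest vehicle value, and PLX3397 M2 was lower than the other 3. The log2 fold change was -0.58 ± 0.23 (edgeR adjusted p = 0.281), which missed the threshold. Without PLX3397 M2 the estimate was -0.36 (adjusted p = 0.332).

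Elovl7, an elongase of the same family that acts on saturated and some unsaturated long chains (chr13, 108214404 to 108285683, plus strand), stood at 5.45, 4.75, 7.11 and 6.66 FPKM in vehicle F1, F2, M1 and M2. It stood at 3.90, 2.39, 3.03 and 1.73 FPKM in PLX3397 F1, F2, M1 and M2. Every PLX3397 library was below every vehicle library. The log2 fold change was -1.11 ± 0.26 (edgeR adjusted p = 0.0928), and the gene passed without PLX3397 F1 (adjusted p = 0.0297) and with DESeq2 (0.000336). The estimates of the elongases differed in size, -1.11 against -0.58, and this difference between genes was not tested.

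Aspa encodes aspartoacylase, which frees acetate from N-acetylaspartate (chr11, 73304992 to 73329596, minus strand). Its level was the lowest of the 8, at 1.12, 1.44, 1.39 and 2.08 FPKM in vehicle F1, F2, M1 and M2 and at 1.34, 0.797, 1.29 and 0.786 FPKM in PLX3397 F1, F2, M1 and M2. PLX3397 F1 and M1 lay among the vehicle values, so the groups overlapped. The log2 fold change of -0.49 ± 0.25 missed the threshold (edgeR adjusted p = 0.401) and also missed it in all 22 alternative fits, DESeq2 included. The estimate was -0.32 without PLX3397 M2 and also without vehicle M2. Between 299 and 851 counts a library stood behind these values.

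Enpp2, autotaxin (chr15, 54838901 to 54920125, minus strand), had 27.2, 25.4, 30.6 and 33.1 FPKM in vehicle F1, F2, M1 and M2 and 18.1, 13.1, 13.7 and 10.7 FPKM in PLX3397 F1, F2, M1 and M2. Both groups were 7.27 FPKM apart at their nearest values. Enpp2 fell from 29.1 ± 3.45 to 13.9 ± 3.09 FPKM (log2 fold change -1.06 ± 0.17, edgeR adjusted p = 0.0247). The call was kept without PLX3397 F1 (adjusted p = 0.0076) or M2 (0.0472) and was lost when PLX3397 F2 (0.0887), PLX3397 M1 (0.0958) or any vehicle library was dropped (F1 0.0503, F2 0.0521, M1 0.0803, M2 0.0748). The choroid plexus markers summed to 8.67 to 10.4 FPKM in vehicle and 9.59 to 9.95 FPKM in PLX3397 libraries. Of 10 such markers 5 were tested and 0 passed with edgeR, and Folr1, Kcne2, Otx2, Aqp1 and Slc4a5 were under the filter.

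**Figure D2:**
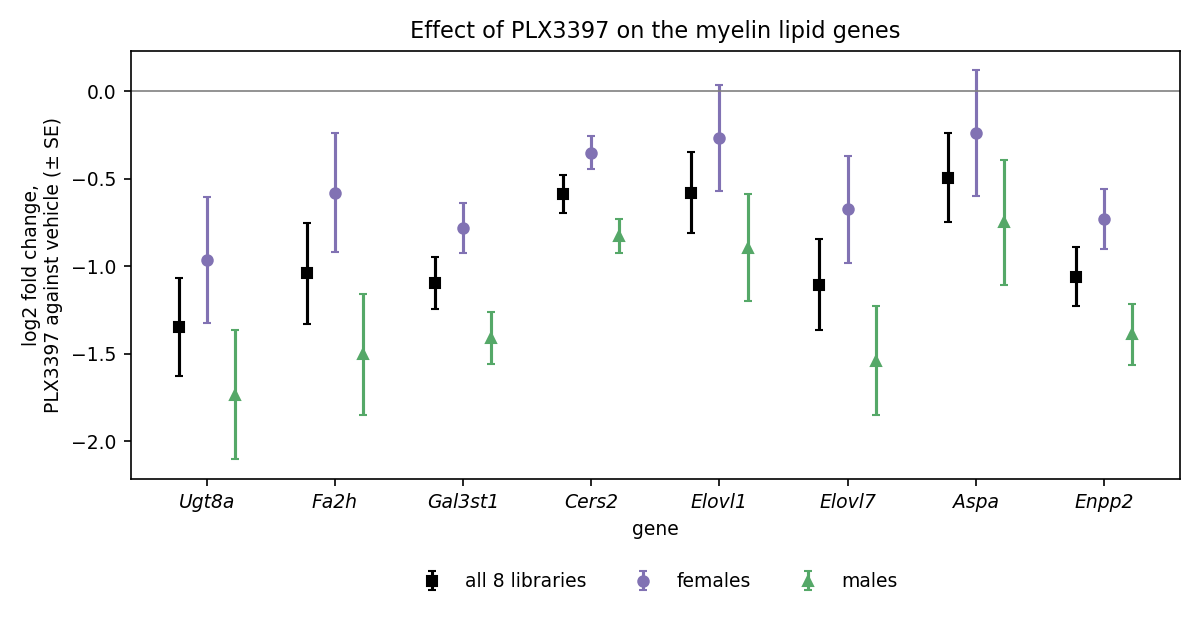
Log2 fold change of PLX3397 against vehicle (vertical axis, ± SE from the edgeR fit) for each gene over all 8 libraries (squares), in females (circles) and in males (triangles). All 24 estimates are below 0, and the male estimate is below the female estimate for each gene.

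Females and males were compared because each group held both. In males all 8 estimates lay between -1.73 (Ugt8a) and -0.75 (Aspa), with a median of -1.40, and Gal3st1, Cers2 and Enpp2 fell (edgeR adjusted p = 0.011, 0.0147 and 0.0181). With edgeR 1.35% of all tested genes fell in males. DESeq2 called 7 of the 8 in males, all but Aspa. The DESeq2 share over all tested genes within a sex was not counted. Over both sexes DESeq2 called 1097 genes, against 362 with edgeR. In females the estimates ran from -0.96 (Ugt8a) to -0.24 (Aspa), with a median of -0.63. There 0 of 8 passed with edgeR, against 0.361% of all tested genes. An unadjusted p under 0.05 was found for 4, against 9.56% of all tested genes, and DESeq2 called Enpp2 and Gal3st1.

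The difference between the sexes was itself tested, and 0 of the 8 genes passed (edgeR adjusted p from 0.747 to 0.909). An unadjusted p under 0.05 was found for 3 of the 8, against 6.01% of all tested genes, and DESeq2 called 0. The female effect less the male effect was 0.48 for Cers2 to 0.92 for Fa2h on the log2 scale. Among all tested genes 0.077% passed with edgeR. In the male comparison 0 of the 8 passed without PLX3397 M2 or without vehicle M2, 2 (Cers2 and Gal3st1) without vehicle M1 and 5 without PLX3397 M1, fits that leave 1 library in an arm and assume it varies like the others. Over both treatments no lipid gene passed the test of females against males (0 of 8 with edgeR, against 0.0592% of all tested genes, and 0 with DESeq2). Their estimates ran from -0.20 to 0.17, with edgeR adjusted p from 0.953 to 0.997 and 0 unadjusted p under 0.05, against 4.99% of all tested genes. That test averages over the treatments, in which the sexes differed in opposite directions. For each of the 8 genes the male mean was above the female mean in vehicle and below it in PLX3397. For Ugt8a the vehicle means were 44.8 FPKM in males and 31.0 FPKM in females, and the PLX3397 means 13.6 and 15.6 FPKM. The sexes were not tested against each other within a treatment.

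Within the vehicle group the levels per length fell into tiers. Ugt8a, Enpp2, Cers2 and Fa2h had means of 37.9, 29.1, 27.4 and 26.1 FPKM, and neighbours in that order overlapped in their library values. Gal3st1 at 11.9 and Elovl1 at 10.2 FPKM also overlapped each other and lay below Fa2h in every library. Elovl7, from 4.75 to 7.11 FPKM, and Aspa, from 1.12 to 2.08 FPKM, each lay below the gene before it without overlap. In PLX3397 libraries the order of means was Cers2 (18.1), Ugt8a (14.6), Enpp2 (13.9), Fa2h (12.5), Elovl1 (6.90), Gal3st1 (5.47), Elovl7 (2.76) and Aspa (1.05 FPKM). Ugt8a exceeded Cers2 in all 4 vehicle libraries, whereas Cers2 exceeded Ugt8a in 3 of the 4 PLX3397 libraries, all but M1. This change of order was not tested.

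The 8 genes also kept a common order among the PLX3397 libraries. All 8 were highest in F1, then M1, then F2, and lowest in M2, an order found for 5.79% of all tested genes. The order was chosen after these values were seen, so the share is no test of it. For Cers2 the values of M1 and F2 were nearly equal (18.104 and 18.099 FPKM). As percent of each gene's vehicle mean, the median over the 8 genes was 66.1% in PLX3397 F1, 53.2% in M1, 43.7% in F2 and 37.5% in M2. In PLX3397 M2 the values ran from 23.5% for Ugt8a to 57.0% for Cers2, and in PLX3397 F1 from 52.3% for Ugt8a to 88.7% for Aspa. In the vehicle libraries F1, F2, M1 and M2 the medians were 90.4%, 86.2%, 112% and 117%.

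**Figure D3:**
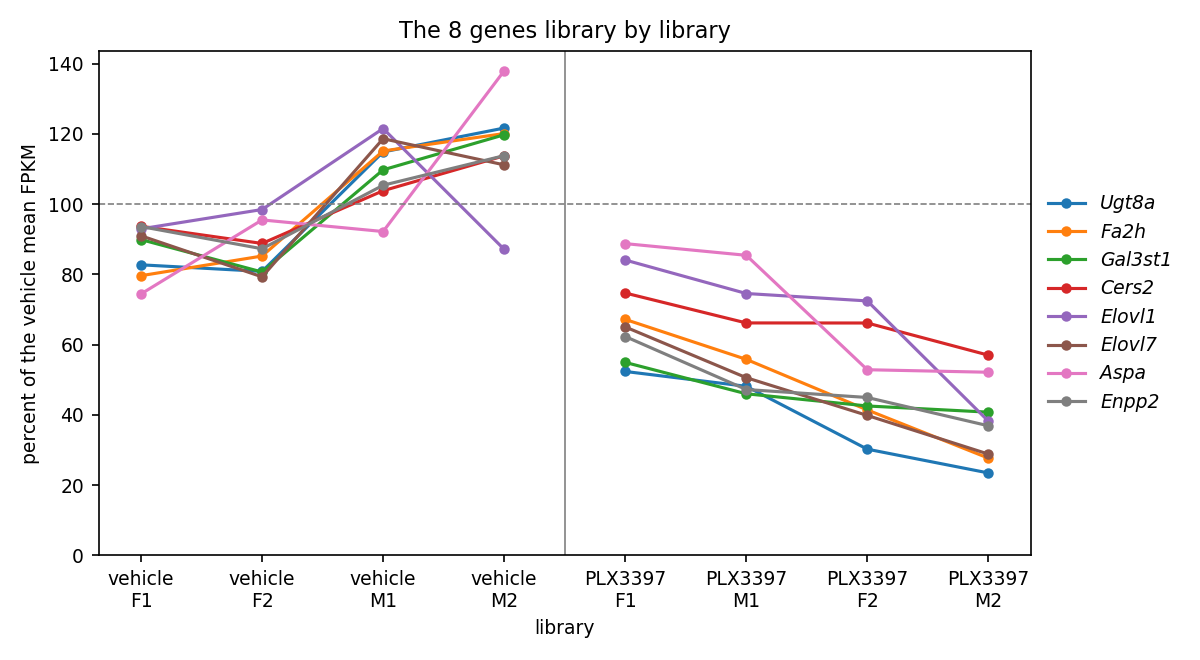
Level of each gene as percent of its own vehicle mean (vertical axis) in each library (horizontal axis); each line is a gene, and the PLX3397 libraries are drawn by falling level, an arrangement chosen after the values were seen. Every line descends across the PLX3397 libraries, from 52.3 to 88.7% in F1 down to 23.5 to 57.0% in M2.

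Deviations from the group means moved together for most pairs. Over the 8 libraries, where each library gives every gene its value and so its own depth and tissue composition, Pearson's r of these deviations on the log2(FPKM + 0.5) scale had a median of 0.84 over the 28 pairs. It ran from 0.35 for Elovl1 with Aspa to 0.98 for Ugt8a with Fa2h. Elovl1 was the least alike, with a median of 0.69 to the other 7. Among the genes whose log2 level was most like the mean of the 8, over 8 libraries that include the difference between the groups, were Cldn11 (r = 0.999), Tmem88b (0.998), Ptprd (0.996) and Padi2 (0.996). Of 16886 other tested genes 434 had an r above 0.9. Cldn11 encodes a tight junction protein of myelin, and Padi2 a peptidyl arginine deiminase of oligodendrocytes. The log2 fold changes of these 4 genes were -1.25, -1.28, -0.35 and -0.96 in the order above, and only Padi2 of the 4 passed with edgeR (adjusted p = 0.0444, against 0.069 to 0.086 for the other 3). The call of Padi2 survived the removal of PLX3397 F1 (adjusted p = 0.0218) and of no other library (0.0502 to 0.135).

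Structural myelin proteins give a scale for oligodendrocyte RNA in each library. Of 12 such genes 4 fell and 0 rose with edgeR, and all 12 estimates were negative, with a median log2 fold change of -1.11. Cnp, a phosphodiesterase of myelin, Mbp, myelin basic protein, and Plekhb1 had the smallest p in that list (-1.36, -1.20 and -0.45; adjusted p = 0.0315, 0.0387 and 0.0421), and Mag also fell (-1.63, adjusted p = 0.0489; named outside the rule). When libraries were dropped singly, Cnp kept its call without PLX3397 F1 or M2, Mbp and Mag without PLX3397 F1 and Plekhb1 without PLX3397 F2, and in no other case. The 12 genes summed to 1272 to 1867 FPKM in vehicle and 442 to 968 FPKM in PLX3397 libraries. Their mean log2 level was 5.62, 5.21, 5.07 and 4.54 in PLX3397 F1, M1, F2 and M2, the same order of libraries as the 8 lipid genes showed.

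Against that scale 5 of the 8 lipid genes had overlapping groups. For each library the mean log2(FPKM + 0.5) of the 12 structural genes was subtracted from that of the lipid gene. This log2 ratio was -1.50 ± 0.09 in vehicle and -1.48 ± 0.14 in PLX3397 for Fa2h, -2.60 ± 0.03 and -2.54 ± 0.29 for Gal3st1, -3.53 ± 0.11 and -3.45 ± 0.08 for Elovl7, and -1.33 ± 0.09 and -1.29 ± 0.16 for Enpp2 (SD, n = 4 each). For these 4 genes the groups overlapped. Ugt8a was at -0.97 ± 0.06 in vehicle and -1.27 ± 0.21 in PLX3397, with overlap only through PLX3397 M1, at -0.98. PLX3397 F1, F2 and M2 (-1.28, -1.49 and -1.31) lay below the lowest vehicle value of Ugt8a, -1.04.

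Cers2, Elovl1 and Aspa had a higher ratio in every PLX3397 library than in any vehicle library. The ratio went from -1.42 ± 0.10 to -0.90 ± 0.29 for Cers2, from -2.79 ± 0.32 to -2.28 ± 0.17 for Elovl1 and from -5.22 ± 0.20 to -4.50 ± 0.27 for Aspa. The same separation upward was found for 80.5% of all tested genes, since the scale itself is lower in PLX3397. The pseudocount of 0.5 compresses the ratio of Aspa, the lowest gene, most. These ratios were described without a test.

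**Figure D4:**
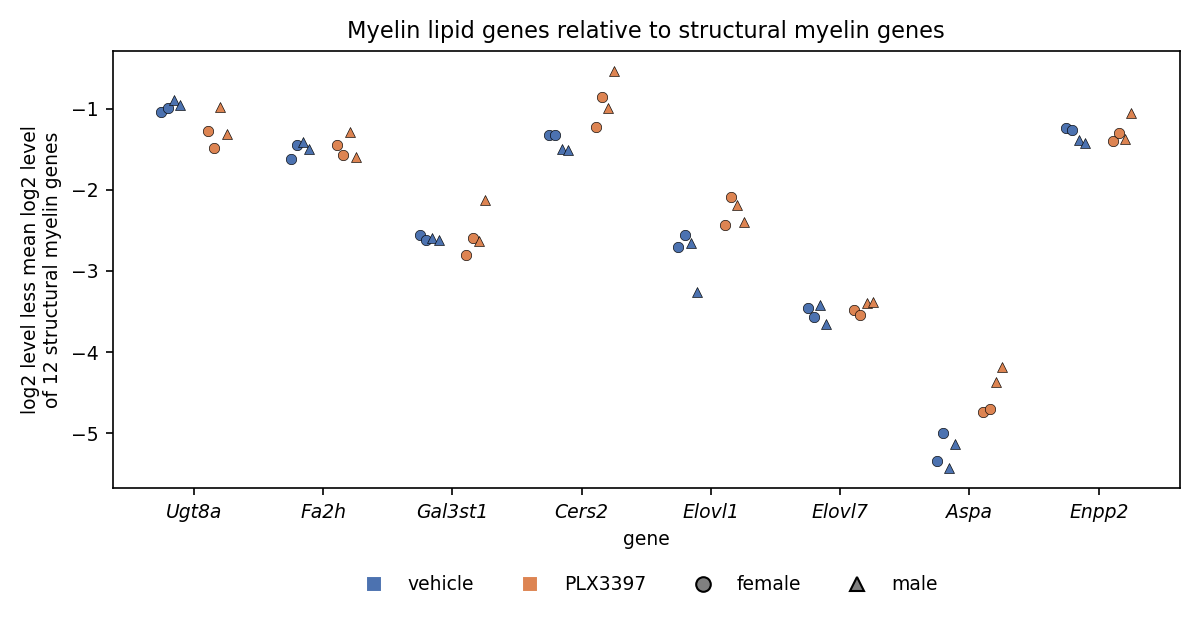
Log2 level of each lipid gene less the mean log2 level of 12 structural myelin genes in the same library (vertical axis, log2 scale), with vehicle at left and PLX3397 at right of each gene, circles for females and triangles for males. The groups overlap for Ugt8a, Fa2h, Gal3st1, Elovl7 and Enpp2, and PLX3397 lies above vehicle for Cers2, Elovl1 and Aspa.

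The wider lipid pathways had 0 calls in most of their lists, which leave out the 8 genes themselves, Cers2 and the elongases among them, and were chosen with earlier results known. Over all tested genes 1.83% fell and 0.308% rose with edgeR, so 0 calls in so short a list lies near that share. Of 15 tested genes of ceramide and sphingolipid synthesis 0 passed with edgeR, and the median log2 fold change was 0.01. The smallest p were those of Sptssb, a small subunit of serine palmitoyltransferase (0.52, adjusted p = 0.229), Ugcg, which makes glucosylceramide (0.09, adjusted p = 0.258), and Cers4, a ceramide synthase (0.13, adjusted p = 0.298). Of 17 genes of fatty acid elongation and desaturation 0 passed, with a median of -0.08. There the desaturase genes Fads2 and Fads1 had -0.22 and -0.26 (adjusted p = 0.0671 and 0.0868) and Scd3, a stearoyl-CoA desaturase gene, -0.51 (adjusted p = 0.105). DESeq2 called these 3 (adjusted p = 0.00606, 0.00899 and 0.0137), and edgeR called Fads1 and Fads2 when PLX3397 F1 was dropped (0.0359 and 0.0124) and Fads2 also with no term for sex (0.0456) or with scaling by library size only (0.0482).

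Supply and breakdown of the same lipids gave a similar count, again near the share over all tested genes. Of 18 genes of acetate and fatty acid supply 0 passed with edgeR, with a median of -0.04. Acss2, which activates acetate, had -0.40 (adjusted p = 0.189), and the acyl-CoA synthetase genes Acsl4 and Acsl3 had 0.19 and -0.21 (adjusted p = 0.168 and 0.208). Of 13 genes of galactolipid and sulfatide breakdown 0 passed, with a median of 0.01. Galc, the galactosylceramidase that breaks down what Ugt8a makes, had -0.27 (adjusted p = 0.104), and Acer2, an alkaline ceramidase, had 0.74 (adjusted p = 0.0839). Glb1, a beta-galactosidase, had -0.10 (adjusted p = 0.492). DESeq2 called Acss2, Galc and Acer2 (adjusted p = 0.0492, 0.0136 and 0.00165), and edgeR called Acer2 when vehicle F1 was dropped (0.0158). Of 9 plasmalogen genes 0 passed, with Pex5, Far2 and Tmem189 at 0.13, 0.12 and -0.29 (adjusted p = 0.31, 0.401 and 0.468).

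The list around autotaxin and lysophospholipid receptors had calls. Of 12 tested genes 4 fell and 0 rose with edgeR, with a median log2 fold change of -0.26. Enpp6, a choline phosphodiesterase of newly formed oligodendrocytes, fell from 6.17 ± 1.81 to 1.06 ± 0.498 FPKM (-2.50 ± 0.30, adjusted p = 0.00951) and kept its call whichever single library was dropped, though not with vehicle F1 and PLX3397 M2 both dropped (0.0521). Plpp2, a lipid phosphate phosphatase that can dephosphorylate lysophosphatidic acid, fell from 5.64 ± 0.602 to 3.43 ± 0.223 FPKM (-0.71 ± 0.09, adjusted p = 0.0134). Lpar1, a receptor for lysophosphatidic acid, fell from 12.9 ± 1.38 to 4.91 ± 1.62 FPKM (-1.40 ± 0.22, adjusted p = 0.0236). The other call, S1pr5, a sphingosine-1-phosphate receptor of oligodendrocytes, is named outside the rule (-1.34 ± 0.23, adjusted p = 0.0348). Plpp2 lost its call when PLX3397 F2, PLX3397 M1 or vehicle M1 was dropped (adjusted p up to 0.0579). Lpar1 kept it only when PLX3397 F1 or vehicle F1 was dropped (otherwise up to 0.0842), and S1pr5 only when PLX3397 F1 was (otherwise up to 0.112).

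**Figure D5:**
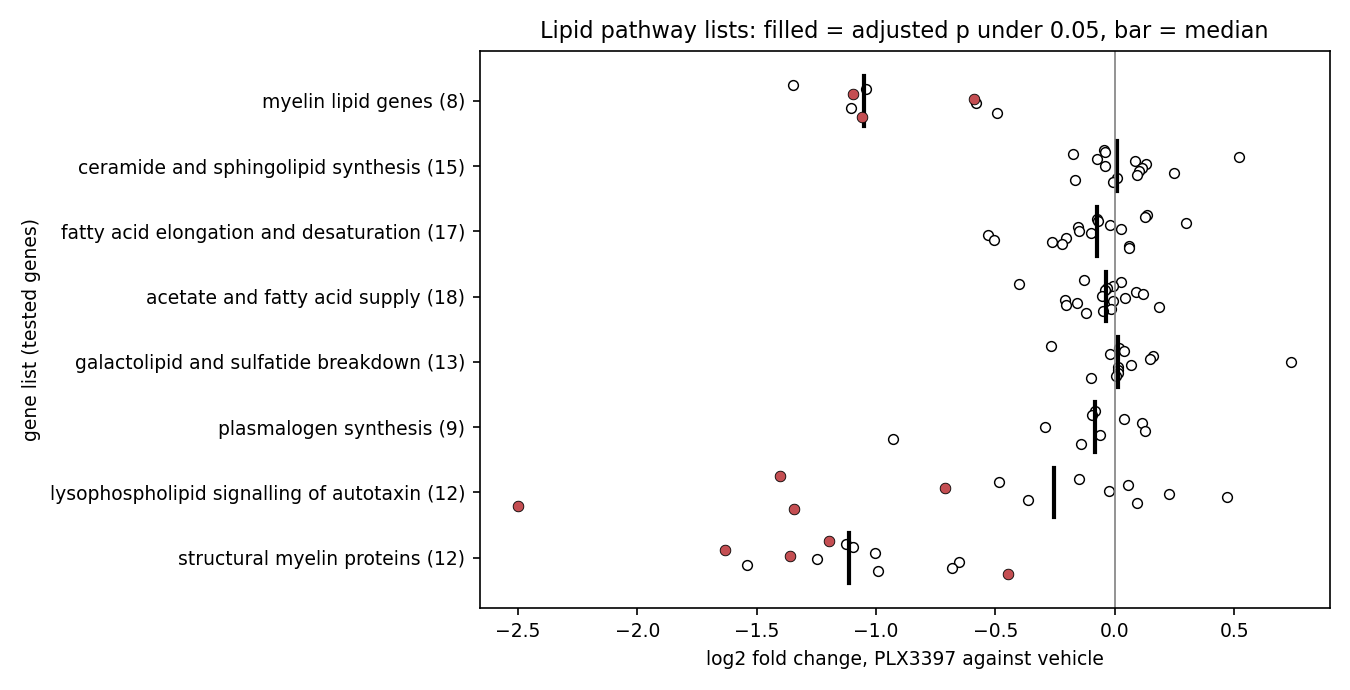
Log2 fold change of PLX3397 against vehicle (horizontal axis) for each tested gene of the 8 lipid genes and of the 7 lists (vertical axis, number tested in brackets); filled points passed with edgeR (adjusted p under 0.05), and bars are medians. The medians of the lipid genes and of the structural myelin genes, -1.05 and -1.11, lie apart from those of the other 6 lists, between -0.26 and 0.01.

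Total counts ran from 54115300 to 67487391 a library. Microglial markers fell in 8 of 10 genes and summed to 136 to 144 FPKM in vehicle and 10.3 to 21.7 FPKM in PLX3397 libraries. Csf1r, the receptor that the compound blocks, was among them (-4.18, edgeR adjusted p = 0.00526). The 10 genes of the oligodendrocyte precursor and lineage list summed to 225 to 322 FPKM in vehicle and 99.7 to 127 FPKM in PLX3397. With edgeR 6 of 10 fell, namely Gpr17, Bcas1, Vcan, Sox10, Olig1 and Olig2. The precursor markers Pdgfra and Cspg4 (-0.21 and -0.28, adjusted p = 0.182 and 0.209) and Ptprz1 and Lhfpl3 (0.04 and -0.16, adjusted p = 0.7 and 0.78) did not pass. The part of oligodendrocyte precursors and committed cells in the values of the lipid genes was not tested. Of the astrocyte and neuron markers 0 of 8 and 0 of 7 passed with edgeR. Negative estimates were 3 of 8 and 1 of 7, against 50.6% of all tested genes. Snap25, a neuron marker, came nearest to the threshold among these (0.15, edgeR adjusted p = 0.0571). Of the endothelial markers Flt1 alone passed, upward, among 8, and of the meningeal fibroblast markers 2 of 8, upward. Vehicle F1 held pituitary transcripts at a summed 3044 FPKM, against 2.05 to 11.8 FPKM in the other 7 libraries. Without it Gal3st1 still passed (adjusted p = 0.0376), and Enpp2 and Cers2 did not (0.0503 and 0.0745). Their log2 fold changes were then -1.13, -1.11 and -0.63, against -1.10, -1.06 and -0.59 with it, and all 8 genes kept their sign.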

How the data were processed

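Ribosomal RNA-depleted total RNA of 8 hypothalami, 4 vehicle and 4 PLX3397, was sequenced. Per the file headers the authors deposited counts and FPKM side by side for each gene and library. Counts are whole numbers, and a gene with a count of 0 was listed by the authors at 0.0001 FPKM. Software named in the submitters' processing notes is bcl2fastq 2.0, HISAT2, StringTie, DESeq2 and limma, with the build mm10 and no roles. How reads were assigned to genes, and whether strand was used, is not given in the labels or headers used here.

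Counts (54115300 to 67487391 a library) were tested two-sided with the quasi-likelihood F-test of edgeR 4.0.16 (R 4.3.3), with TMM scaling and a sex term. Benjamini-Hochberg adjustment covered the 16894 genes with a mean of at least 0.5 FPKM. A model of 4 sex-by-treatment groups gave the effects in each sex and the interaction. The SE was derived from the fold change and its F value. Log2 levels used a pseudocount of 0.5. Scripts were tested on simulated data. Of 100 genes changed 1.5-fold there, edgeR called 40, limma 25 and DESeq2 59. Of 100 changed 2-fold, edgeR called 62, limma 53 and DESeq2 79. False calls in that run numbered 7 with edgeR, 13 with limma and 56 with DESeq2. The simulated counts were drawn gene by gene with the spread that edgeR had estimated, with no sex effect and no shift shared between genes. These numbers therefore cannot show which tool is nearer the truth on the deposited counts. No pair of libraries agreed within sampling noise. Alternatives were other filters, scalings and covariates, limma 3.58.1, DESeq2 1.42.0 and left-out libraries. Named genes are the 8 members, up to 3 per pathway list by smallest p, and the 5 most alike in level, of which 1 is not reported here. Members and lists were chosen with earlier results of these data known.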

Additional observations from a re-analysis of the deposited data

Results flagged for a closer look

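In groups of 4 libraries, a library was marked when its gap to the nearest other, as a share of the range of the group, exceeded Dixon's 95% critical value; chance marks about 1 in 20 such groups, and 52 were examined. None of the 8 lipid genes and none of their ratios was marked. The summed pituitary markers of vehicle F1, 3044 FPKM against 2.05 to 8.17 FPKM in the other vehicle libraries, stood apart. In PLX3397 M2 the summed oligodendrocyte precursor and lineage list was at 99.7 FPKM, against 123 to 127 FPKM in the other PLX3397 libraries. The summed astrocyte markers of PLX3397 M2 were 462 FPKM, against 503 to 509 FPKM in those libraries. The summed choroid plexus markers of PLX3397 F2, 9.59 FPKM, lay 0.967 of a very narrow range from the others, at 9.94 to 9.95 FPKM.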

How the results depend on the processing

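Over 22 alternative fits none of the 8 genes changed sign. Of their 176 fits, 146 kept the side of the threshold, 24 lost a call and 6 gained one. The number of lipid genes called, 3, was 6 with DESeq2, 0 with the replicate block, 0 without vehicle F1 and PLX3397 M2 together and 0 to 5 without a library in turn, and it was 2 to 4 in the other fits. The 362 calls among all genes became 1097 with DESeq2, 79 with the replicate block, 123 without vehicle F1 and PLX3397 M2 together and 138 to 361 without a library in turn. Same-labelled libraries share sex and a number, and the labels name no shared source. The correlation of deviations was 0.011 to 0.075 between same-labelled libraries and -0.058 to 0.064 between the others. These small values cannot settle whether same-labelled libraries share a source. The cause of these shifts was not tested, though fits on fewer libraries and the block have fewer residual degrees of freedom. The difference between the sexes gave 0 called lipid genes in all its alternatives, as did females against males. Aspa, with 299 to 851 counts a library, has the least depth of the 8.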
